A study of Homo sapiens with 4 samples.

Results

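The HOX clusters were examined in BJ fibroblasts, an established line of human foreskin fibroblasts, by the peaks that ATAC-seq called at 38 HOX genes. A peak was taken as a HOX region when its summit, the position of highest coverage, lay inside the body of a member gene or at most 10 kb from any of its transcription start sites (TSS). At a −log10 q of 10 or more, the threshold of the study, 35 of 56680 regions of the CTR list and 38 of 62343 regions of the p63 list met this rule. Of all deposited peaks on chromosomes 1 to 22, X and Y, 54 of 101142 and 62 of 109486 did so. The 38 genes are among 20007 protein-coding gene names of the annotation, and comprise 10 genes of HOXA on chromosome 7, 10 of HOXB on chromosome 17, 9 of HOXC on chromosome 12 and 9 of HOXD on chromosome 2.

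In ATAC-seq a transposase cuts and tags accessible DNA, so that regions in an open conformation give more reads. The CTR cells expressed KLF4, a zinc finger transcription factor, and the p63 cells expressed KLF4 together with ΔNp63α, the p63 isoform that maintains stratified epithelia. Both were polyclonal lines of the same BJ cells that carried the reverse tetracycline transactivator, and both received doxycycline for 72 h. In the p63 line a single inducible transcript encoded ΔNp63α and KLF4, joined by a self-cleaving peptide. Each group had 2 samples, from separate inductions of the same lines, but 1 peak list was deposited per group. No value below therefore has a spread between replicates, no difference between the groups could be tested, and intervals cover counting error only. The lowest summit that entered either list at the threshold had 15 reads, and regions with fewer reads could not be seen as open.

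HOX genes encode homeodomain transcription factors that assign position along the body axis and the limbs. Within a cluster the low-numbered genes lie at the 3′ end and are used towards the head, and the high-numbered genes lie at the 5′ end and are used towards the tail and the tips of the limbs. Dermal fibroblasts keep in culture a combination of active HOX genes that depends on the body site they came from, while Polycomb complexes hold the inactive stretches closed.

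The sequences that carry the regions described below are shown first. They were read from the hg38 reference on the plus strand, 100 bases to either side of the summit, and none overlaps an annotated exon. They comprise CTCF motif matches between genes of a cluster, AP-1 motif matches in regions that were open in the p63 list only, and regions with no match, in which capitals mark CpG dinucleotides. CTCF is the factor that anchors chromatin loops, AP-1 (JUN and FOS dimers) binds many fibroblast enhancers, and dense CpG marks the promoters of developmental genes. In the first 3 sequences the capitals mark the match to the CTCF motif, which lies on the minus strand in each.
HOXA, upstream of HOXA7, p63 list, chr7:27160955-27161155: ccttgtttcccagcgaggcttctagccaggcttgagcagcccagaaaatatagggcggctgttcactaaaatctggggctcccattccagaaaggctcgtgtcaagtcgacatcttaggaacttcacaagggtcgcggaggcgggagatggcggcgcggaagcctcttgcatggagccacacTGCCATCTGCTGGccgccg
HOXB, upstream of HOXB8, CTR list, chr17:48618620-48618820: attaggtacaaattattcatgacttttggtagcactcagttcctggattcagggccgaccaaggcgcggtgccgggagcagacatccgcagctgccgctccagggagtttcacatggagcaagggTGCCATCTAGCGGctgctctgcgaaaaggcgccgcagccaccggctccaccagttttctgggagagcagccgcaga
HOXD, between HOXD13 and HOXD12, CTR list, chr2:176097622-176097822: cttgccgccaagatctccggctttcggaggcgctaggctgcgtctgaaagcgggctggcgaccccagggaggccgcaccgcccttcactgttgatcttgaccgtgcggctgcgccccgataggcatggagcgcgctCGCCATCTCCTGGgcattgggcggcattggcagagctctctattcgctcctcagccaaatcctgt
In the next pair the capitals mark an AP-1 site, TGAGTCA.
HOXC, beyond the 3′ end of HOXC4, p63 list, chr12:54061127-54061327: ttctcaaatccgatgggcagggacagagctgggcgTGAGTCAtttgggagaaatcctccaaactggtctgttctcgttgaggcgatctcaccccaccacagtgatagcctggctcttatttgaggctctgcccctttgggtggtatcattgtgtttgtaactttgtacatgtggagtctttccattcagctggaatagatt
HOXB, between HOXB9 and HOXB13, p63 list, chr17:48637931-48638131: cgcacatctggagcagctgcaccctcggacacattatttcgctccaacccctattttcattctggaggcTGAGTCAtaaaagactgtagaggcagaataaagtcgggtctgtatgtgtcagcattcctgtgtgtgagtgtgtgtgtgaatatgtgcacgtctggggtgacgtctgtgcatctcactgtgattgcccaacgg
In the last 3 sequences the capitals mark CpG. The HOXD one lies in the gene body of HOXD3, outside its canonical transcript.
HOXC, upstream of HOXC8, CTR list, chr12:54006005-54006205: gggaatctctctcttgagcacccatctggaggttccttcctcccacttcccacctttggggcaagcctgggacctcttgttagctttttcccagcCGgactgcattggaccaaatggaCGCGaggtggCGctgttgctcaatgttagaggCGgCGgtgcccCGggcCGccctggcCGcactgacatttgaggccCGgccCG
HOXC, upstream of HOXC8, p63 list, chr12:54007595-54007795: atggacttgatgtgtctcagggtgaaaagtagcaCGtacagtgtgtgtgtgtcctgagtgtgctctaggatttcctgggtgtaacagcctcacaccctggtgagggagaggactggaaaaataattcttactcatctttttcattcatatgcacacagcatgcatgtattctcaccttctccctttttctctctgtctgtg
HOXD, between HOXD8 and HOXD4, p63 list, chr2:176140662-176140862: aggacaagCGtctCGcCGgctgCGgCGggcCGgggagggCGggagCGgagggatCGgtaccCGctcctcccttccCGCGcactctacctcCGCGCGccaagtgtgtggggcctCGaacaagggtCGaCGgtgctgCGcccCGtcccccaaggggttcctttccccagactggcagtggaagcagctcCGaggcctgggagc

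The clusters differed in how many of their regions were open, with HOXA and HOXC ahead of HOXB and HOXD in both lists. HOXA held 12 CTR regions and 13 p63 regions, HOXC 11 and 14, HOXB 5 and 6, and HOXD 7 and 5. The window of each cluster ran from 10 kb before its first member to 10 kb after its last. With every region in the window counted, also those outside the member rule, the density per 10 kb was 1.0 regions in CTR and 1.09 in p63 at HOXA, and 0.272 and 0.363 at HOXB (6 and 8 regions), whose window of 220.22 kb includes the long gap between HOXB9 and HOXB13. Summits were also lowest in reads at HOXB, with a median of 21 in CTR and 19 in p63, against 54 and 43 at HOXA. The median was 35 and 35.5 reads at HOXC, 47 and 45 reads at HOXD, and 33 reads over all regions of each list. The order was another by fold enrichment, the summit over the coverage expected from the surroundings. At HOXB its median was 8.9 in CTR and 8.3 in p63, against 7.7 and 6.4 at HOXA. It was 6.6 and 6.8 at HOXC, 8.5 and 9.6 at HOXD, and 9.4 and 9.6 over all regions.

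**Figure D1:**
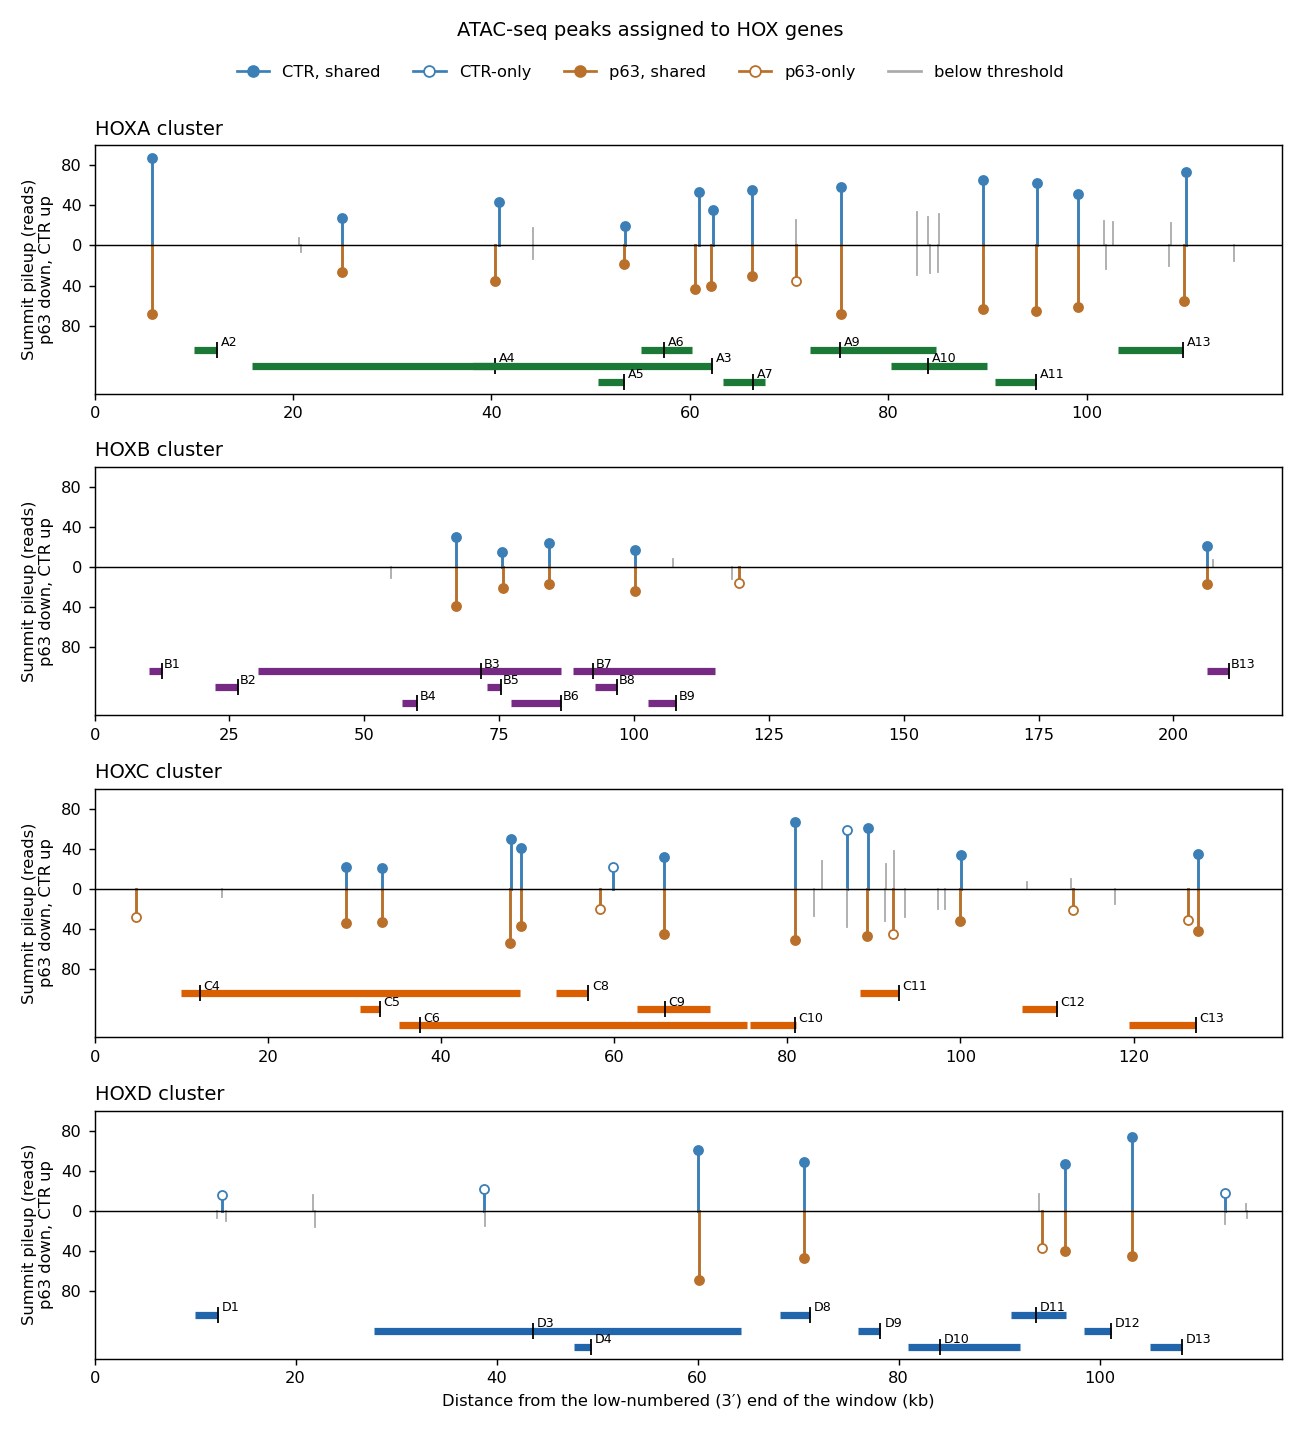
Summit pileup in reads (CTR upwards, p63 downwards) of every deposited peak assigned to a HOX gene, by the distance in kb from the low-numbered end of each cluster window. Filled circles are regions shared at the threshold, open circles are regions at the threshold in 1 list only, grey lines are peaks below it, bars under the axis are genes with a tick at the canonical TSS. HOXA has regions along its whole length in both lists, and HOXB1, HOXB2 and HOXB4 have none around their starts.

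Most HOX genes that were open in CTR were open in p63. With an open TSS defined as a region with its summit within 1 kb of any annotated start, 19 of 38 members were open in CTR (50%, Wilson 95% interval 34.9 to 65.2%) and 19 of 38 in p63. The share of all protein-coding genes was 64.3% in CTR and 64.8% in p63, and the upper bound of the HOX interval lay just above both. There were 18 members open in both lists, 18 in neither, HOXC11 in p63 alone and HOXD1 in CTR alone. The share of all protein-coding genes open in both lists was not computed, so this overlap cannot be read as a trait of the HOX genes.

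At HOXA, 9 of 10 members had an open start in each list. HOXA13, the most 5′ gene, which patterns the distal limb and the genital tubercle, had a summit of 73 reads in CTR and 55 in p63. HOXA9 had 58 and 68 reads at a summit 50 and 14 bp from its start, and HOXA11 62 and 65 reads at 96 and 41 bp. These levels lay close to each other in the lists, with p63/CTR ratios of 0.753 (95% interval 0.521 to 1.08), 1.17 (0.814 to 1.69) and 1.05 (0.729 to 1.51). HOXA7 departed further, with 55 reads in CTR and 31 in p63 at summits 5 bp apart, a ratio of 0.564 (0.351 to 0.891). HOXA5, which specifies positions in the neck and chest, had the lowest summit at an open start of the cluster, with 19 reads in each list. HOXA2, which patterns the neural crest and hindbrain, was the member without an open start, and its nearest region lay 6515 bp downstream in CTR with 87 reads and 6568 bp in p63 with 68 reads. That region had the highest −log10 q of the cluster, 66.4 and 55.8, but lies outside the canonical member transcripts and was assigned to HOXA2 by distance alone. The next were HOXA13 in CTR (39.0) and the upstream start of HOXA10 in p63 (30.7).

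At HOXB, HOXB5 alone had an open start, with 15 reads in CTR and 21 in p63. HOXB1, HOXB2 and HOXB4 lay together in a stretch of 66.75 kb without a region in CTR and 66.63 kb in p63, which began at the edge of the window, and HOXB1 and HOXB2 had no deposited peak within the member rule. The strongest region of the cluster lay in an intron of HOXB3 (chr17:48585280-48586092 in CTR), 2880 bp upstream of the nearest HOXB3 start, with 30 reads in CTR and 39 in p63. HOXB9 had a CTR peak of 8 reads 517 bp from its start, below the threshold, and none there in p63, and HOXB3 had a p63 peak of 11 reads 572 bp from a start, with a −log10 q of 6.39, and none there in CTR. HOXB3, HOXB6, HOXB7, HOXB8 and HOXB13 had their nearest region between 1337 and 5537 bp away in both lists.

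At HOXC, 6 of 9 members had an open start in CTR and 7 in p63. HOXC10, a gene of the lower trunk and hindlimb, had 67 reads in CTR and 51 in p63, and was the strongest region of the cluster in CTR by −log10 q (35.6). HOXC9 was the strongest in p63, with 45 reads against 32 in CTR. HOXC13, which acts in hair and nail, had 35 reads 223 bp upstream in CTR and 42 reads 257 bp upstream in p63. HOXC8 and HOXC12 had no open start in either list. HOXC11 had a p63 region of 45 reads in its first coding exon, 690 bp from the start, and a CTR peak of 38 reads over the same bases with a −log10 q of 9.47, just under the threshold. Their ratio was 1.18 (0.752 to 1.87), so the change of class at HOXC11 rests on a difference within counting error.

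At HOXD, HOXD8 and HOXD11 were open in both lists. HOXD8 had 49 reads in CTR and 47 in p63 at the same base, and HOXD11 47 and 40 reads at an upstream start. HOXD1, the most 3′ gene, had a CTR region of 16 reads 446 bp upstream, and in p63 the overlapping peak had 10 reads and a −log10 q of 4.67. Its ratio of 0.625 had an interval of 0.254 to 1.46. HOXD3, HOXD4, HOXD9, HOXD10, HOXD12 and HOXD13 had no open start in either list, and HOXD4 had no deposited peak within the member rule.

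**Figure D2:**
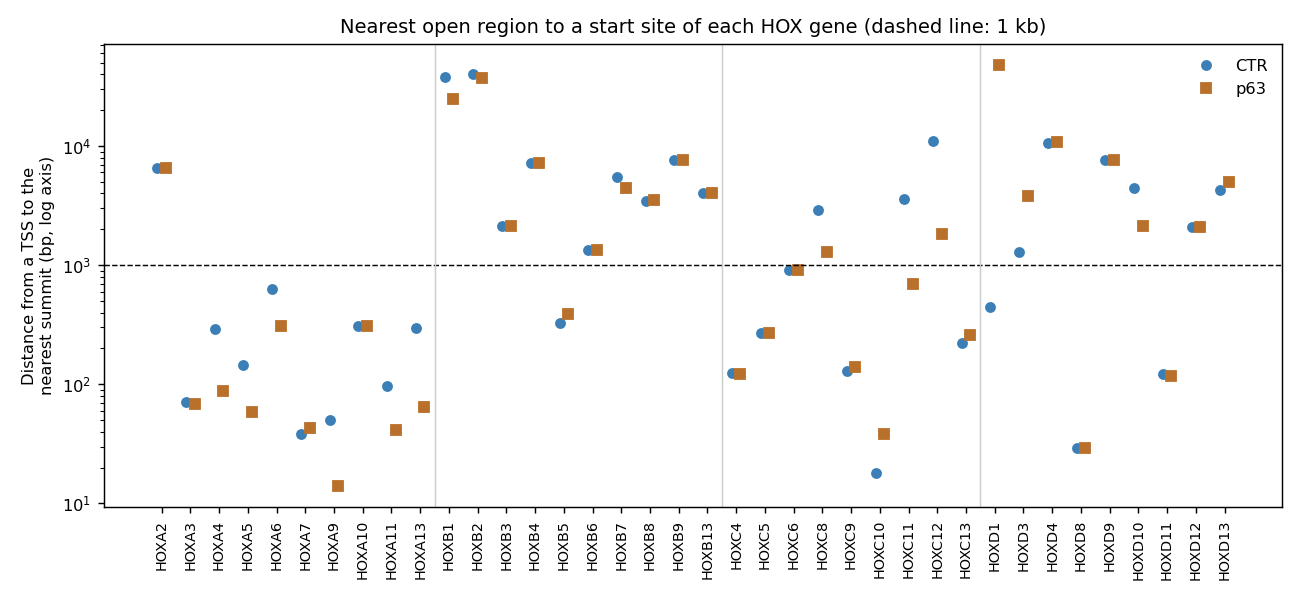
Distance in bp (log axis) from the nearest annotated start of each member to the nearest summit at the threshold, for CTR (circles) and p63 (squares). The dashed line marks 1 kb, the limit for an open TSS. Members of HOXA lie below it except HOXA2, and members of HOXB lie above it except HOXB5.

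The choice of start mattered for several genes. With the canonical transcript alone, 14 members were open in CTR and 15 in p63. HOXA6, HOXA10, HOXC4 and HOXC6 were open only at other starts in both lists. The canonical start of HOXD11 was open in p63 alone, with a region of 37 reads 611 bp away. The nearest CTR region lay 2942 bp from it, and a CTR peak of 17 reads at 386 bp was below the threshold. The canonical start of HOXA10 had a CTR peak of 28 reads 50 bp away with a −log10 q of 3.80, whereas HOXB5 passed the threshold with 15 reads. The difference between these lay in the local background, the coverage that the peak caller expected from the surroundings, which was 10.4 reads at HOXA10 and 1.18 at HOXB5.

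The local background itself followed the clusters. Near members of groups 9 to 13 of HOXA its median over 11 deposited peaks was 10.4 reads in CTR and 8.59 in p63, higher than at 96.8% and 94.2% of all regions of the lists. At groups 9 to 13 of HOXC it was 7.92 reads over 11 peaks and 7.08 over 15, with a highest value of 12.8 in CTR next to HOXC11. At the 5′ end of that cluster it was low in CTR, with 1.42 reads upstream of HOXC12 and 2.72 at HOXC13. At groups 9 to 13 of HOXD it was 4.57 and 3.58 reads over 5 peaks each. At HOXB, in contrast, the values at the threshold ran from 1.18 to 2.07 reads in CTR and from 1.32 to 2.24 in p63, near the lowest value of each list (1.18 and 1.13). The background exceeded 2 times that lowest value at 24 of 35 CTR regions (54.2% of all CTR regions did so) and at 28 of 38 p63 regions (54.6%). None of the 5 CTR and 6 p63 regions of HOXB did. Between the lists the median p63/CTR ratio of the background was 0.956 over 47 pairs of HOX peaks. It was 0.957 over all pairs, which is also the ratio of the lowest values of the lists. Single pairs moved both ways, from 5.675 to 3.876 reads downstream of HOXA2 and from 1.416 to 2.246 reads upstream of HOXC12. These values belong to the peaks, whose own reads can enter them, and coverage between peaks was not measured.

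**Figure D3:**
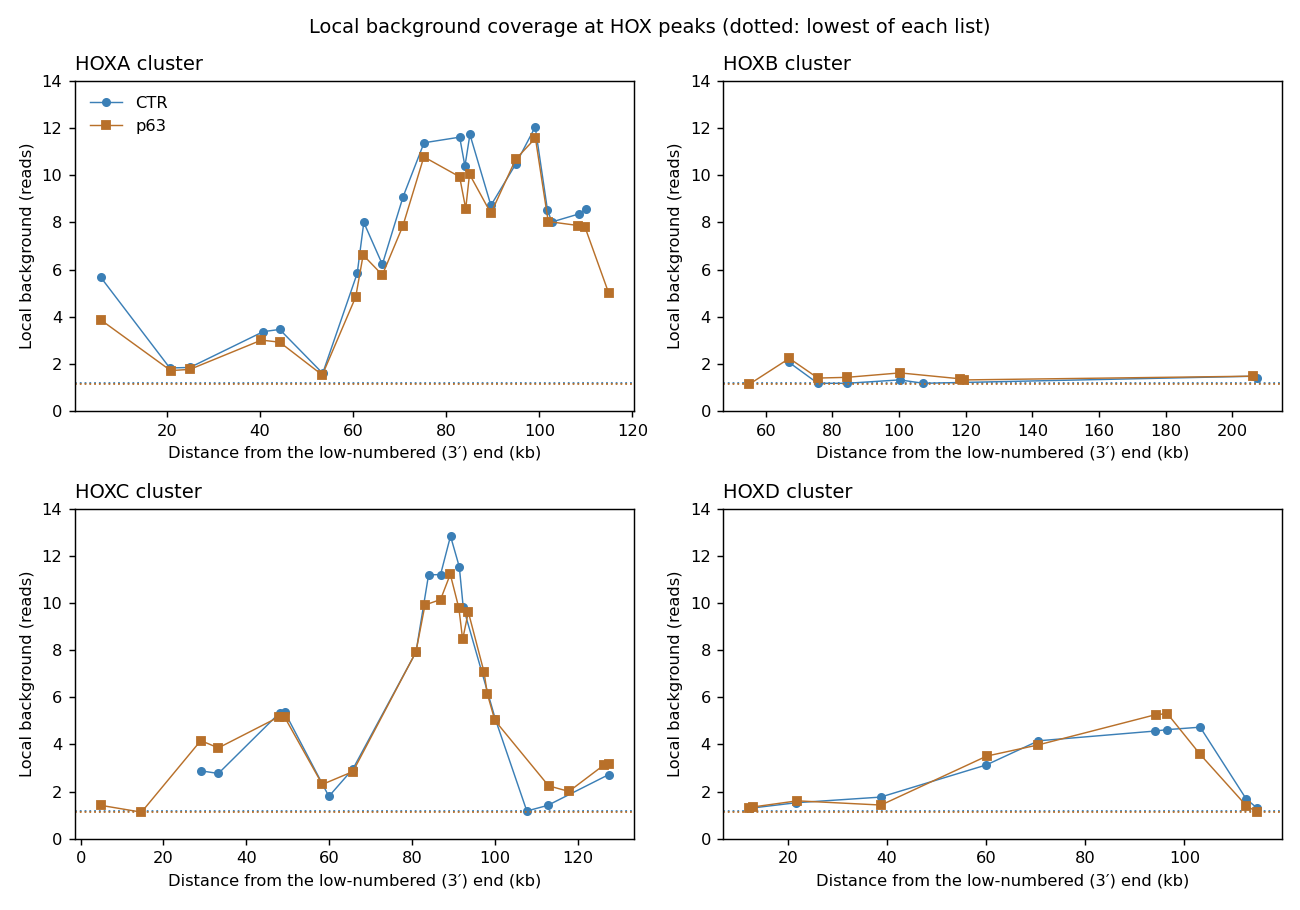
Local background in reads at every deposited HOX peak by distance in kb from the low-numbered end of each cluster, for CTR (circles) and p63 (squares), with dotted lines at the lowest value of each list. It is highest around HOXA9 to HOXA13 and around HOXC10 and HOXC11, up to 12.1 and 12.8 reads in CTR, is low again at HOXC12 and HOXC13, and stays near the dotted lines at HOXB.

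The share of regions that were open in 1 list only lay near that of all regions. A region was list-only when no region of the other list at the threshold overlapped it by 1 bp. There were 5 CTR-only regions among 35 (14.3%, 95% interval 6.26 to 29.4%), beside 16.5% of all CTR regions, and 8 p63-only regions among 38 (21.1%, 11.1 to 36.3%), beside 23.9% of all p63 regions. When equal numbers of top-ranked peaks were taken from both lists, the order turned, with 8 of 35 CTR-only (22.9%) and 5 of 32 p63-only (15.6%). The shares of all regions at equal list sizes were not computed, so this turn cannot be read as a trait of the HOX regions. Without any deposited peak of the other list underneath were 1 of 35 CTR regions (3.29% of all CTR regions) and 4 of 38 p63 regions (12% of all p63 regions). Among all deposited HOX peaks this held for 7 of 54 in CTR (13%, beside 21.4% of all deposited peaks) and 14 of 62 in p63 (22.6%, beside 27.1%).

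List-only regions were few in each cluster, and their numbers do not show that the clusters differed. HOXC held 2 CTR-only among 11 CTR regions and 5 p63-only among 14 p63 regions. At HOXD the counts were 3 of 7 and 1 of 5. They were 0 of 12 and 1 of 13 at HOXA, and 0 of 5 and 1 of 6 at HOXB. The Wilson interval of each share held the share of all regions, 16.5% in CTR and 23.9% in p63. The highest share in CTR, at HOXD, had an interval of 15.8 to 75.0%, and that in p63, at HOXC, 16.3 to 61.2%. At HOXA, 0 of 12 CTR regions were CTR-only, which allows a share of up to 25%.

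The p63 list had 4 HOX regions with no CTR peak. The strongest lay beyond the 3′ end of HOXC4 (chr12:54061039-54061499), had 28 reads over a background of 1.42 and a −log10 q of 24.4, and carries the AP-1 site shown above. The second, with 31 reads, lay in the intron of HOXC13 (chr12:53939527-53939907), 875 bp from its start and 63 bp from a start of the antisense RNA HOXC13-AS. The others lay 1290 bp upstream of HOXC8 (chr12:54007409-54007899, 20 reads) and in the gap between HOXB9 and HOXB13 (chr17:48637920-48638123, 16 reads, with an AP-1 site). The last 2 passed the threshold by little, at a −log10 q of 10.8 and 10.7. The remaining 4 p63-only regions overlapped a weaker CTR peak, namely those upstream of HOXA7, HOXC12 and HOXD11 and the one in HOXC11. The HOX peaks nearest to the threshold had a −log10 q of 10.1 above and 9.75 below it in CTR, and 10.7 and 9.45 in p63.

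In CTR the region without any p63 peak lay 2880 bp upstream of HOXC8 (chr12:54006038-54006278, 22 reads, −log10 q 14.8). It is the CpG-bearing sequence printed above, with 11 CpG around its summit, and the p63-only region upstream of HOXC8 lay nearer to the gene and held 1 CpG. HOXC8, a gene of the thorax, thus had a different upstream region in each list and a closed start in both. The other CTR-only regions overlapped weaker p63 peaks. The largest, with 59 reads in CTR and 38 in p63, lay between HOXC11 and HOXC10 (chr12:53979003-53979376), at a ratio of 0.644 (0.417 to 0.985). The 3 others lay in HOXD, namely 4297 bp upstream of HOXD13 (18 and 13 reads), in an intron of HOXD3 (22 and 15 reads) and upstream of HOXD1 (16 and 10 reads), and each of their intervals held 1. The HOXD1 region lay 47 bp from a start of the antisense RNA HAGLR, which therefore also had an open start in CTR and not in p63.

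Where peaks of the lists overlapped, their heights were close. There were 38 pairs of HOX peaks with at least 1 member at the threshold, and their median p63/CTR ratio was 0.985, with 1.0 over all 62131 pairs. The ratio exceeded 2 at 2 of 38 pairs (4.67% of all pairs) and fell under 0.5 at 0 of 38 (1.87%). The interval of the ratio held 1 at 34 of 38 pairs and excluded it at 4, beside 10.5% of all pairs, so the share at HOX genes is that of the lists. The exceptions were the HOXA7 start, the region between HOXC11 and HOXC10, the region between HOXD13 and HOXD12 and the region upstream of HOXD11.

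The HOXD region between HOXD13 and HOXD12 had the highest −log10 q of that cluster in CTR (57.1), with 74 reads in CTR and 45 in p63 and a ratio of 0.608 (0.410 to 0.893). It holds the CTCF match printed above 43 bp from its CTR summit. Upstream of the canonical HOXD11 start (chr2:176106267-176107253) the order was the opposite, with 17 reads in CTR and 37 in p63, a ratio of 2.18 (1.20 to 4.12). The other ratio over 2, at HOXC12, came from 10 and 21 reads and its interval ran from 0.947 to 4.99. HOXC12 had no CTR region at the threshold within the member rule. The strongest p63 region of HOXD (chr2:176140485-176141170, −log10 q 59.9) lay between HOXD8 and HOXD4, in the gene body of HOXD3. Its summit was 3805 bp downstream of a HOXD3 start. It had 69 reads in p63 and 61 in CTR, a ratio of 1.13 (0.790 to 1.62). By cluster, the median ratio was 1.0 at HOXA (13 pairs), 1.30 at HOXB (5), 1.13 at HOXC (12) and 0.787 at HOXD (8). In that order, 5 of 13, 3 of 5, 7 of 12 and 2 of 8 ratios exceeded 1, beside 49.8% of all pairs. At HOXD the interval held 1 at 6 of 8 pairs.

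**Figure D4:**
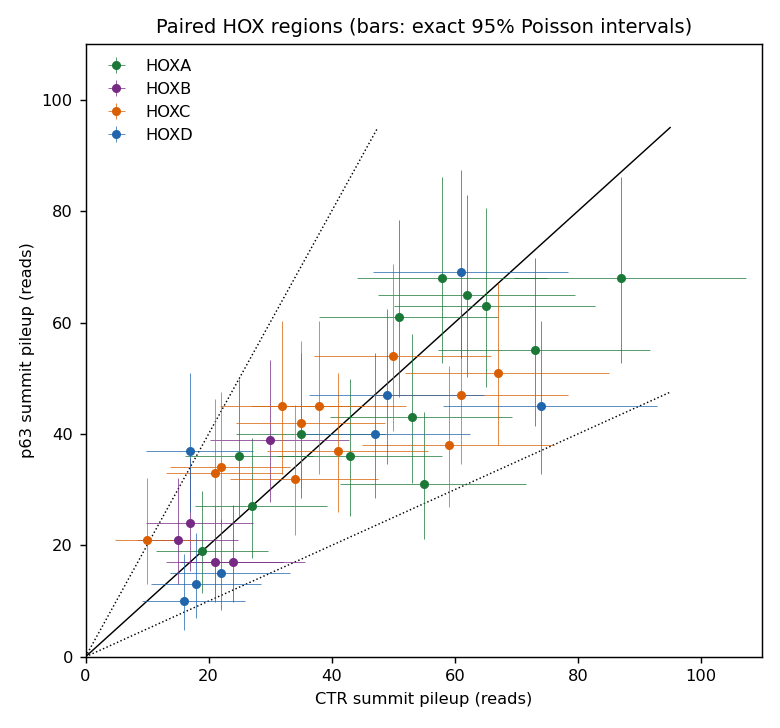
Summit pileup in reads of the 38 pairs of overlapping HOX peaks in CTR (x axis) and p63 (y axis), coloured by cluster, with exact 95% Poisson intervals. The solid line marks equal pileup and the dotted lines a 2-fold difference. The 2 points past the upper dotted line are at HOXC12 and HOXD11, and no point lies past the lower one.

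Between regions, most of each cluster was closed. A closed stretch was taken as 5 kb or more without a region at the threshold. Together such stretches covered 92.9% of 595.35 kb in CTR and 89.9% in p63. The share was lowest at HOXA (82.1% in CTR, 75.0% in p63), and 91.2% and 85.9% at HOXC, 95.2% and 94.8% at HOXD and 98.6% and 98.0% at HOXB. Peaks below the threshold lay in some of these stretches, and with all deposited peaks the share at HOXA was 59.4% and 52.0%. Neither the closed share nor the density of regions was computed for the rest of the genome. These values therefore do not tell whether the clusters are more or less closed than other DNA.

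The longest closed stretch of HOXA was 17.73 kb in CTR and 17.9 kb in p63 and held HOXA2, and the next, 14.85 and 14.61 kb, lay inside the gene body of HOXA3. At HOXB the stretch over HOXB1, HOXB2 and HOXB4 was followed in CTR by one of 52.68 kb that held HOXB9. In p63 the AP-1 region between HOXB9 and HOXB13 divided that stretch, and the second longest was 45.69 kb, nearer to HOXB13, and held no member. At HOXC the longest covered the canonical transcript of HOXC4, 28.95 kb in CTR and 23.88 kb in p63, where the AP-1 region ended it. The second in CTR, 26.86 kb around HOXC12, was broken in p63 by 2 p63-only regions, and the second in p63 was 14.23 kb over HOXC6. At HOXD the longest stretch differed most, with 25.25 kb in CTR between the region in the HOXD3 intron and the one at HOXD1, and 59.74 kb in p63 over HOXD3, HOXD4 and HOXD1. The p63 stretch contained 4 deposited peaks below the threshold and the sites of 2 CTR regions, so its length depends on the threshold. Next came 24.81 kb in CTR and 22.26 kb in p63 over HOXD9, HOXD10 and the canonical transcript of HOXD11. In p63 the canonical start of HOXD11 lay at the edge of this stretch and still counted as open. The region beside it had its summit 611 bp upstream.

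HOX regions were rich in CpG, with a median of 14 CpG in the summit window in CTR and 12 in p63 against 3 over all regions of either list, and a median GC content of 58.7% and 60.2% against 49.8% and 50.3%. List-only shares depended on CpG in the lists as a whole. Among all regions with 10 or more CpG, 4.48% were CTR-only and 4.33% p63-only, whereas among those with fewer it was 20.2% and 29.3%. Of the HOX regions with 10 or more CpG, 3 of 25 were CTR-only (12%, 4.17 to 30.0%) and 5 of 26 p63-only (19.2%, 8.51 to 37.9%). The p63 interval lay above the share of all such regions and the CTR interval included it. The split at 10 CpG was chosen with the results known, so these shares are a description.

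Motifs were searched on both strands within 100 bp of the summit. The p53/p63 family site, with at most 3 mismatches, was found at 0 of 35 CTR regions, which allows up to 8.57%, and at 0 of 38 p63 regions, which allows up to 7.89%. It was found at 0.932% of all CTR and 3.78% of all p63 regions. Over whole peaks, 1 of 38 p63 regions held the site, as did 6.50% of all p63 regions. It was the p63-only region upstream of HOXC8, where AGGCATGTGTGTGCTAGTTT (chr12:54007566-54007585) lay 118 bp from the summit. The windows of the 4 clusters contain 28 matches to this site, of which 6 lie in HOXA, 11 in HOXB, 4 in HOXC and 7 in HOXD, and of these 1 lay in a p63 region and 0 in a CTR region.

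AP-1 sites (TGACTCA or TGAGTCA) were found at 2 of 35 CTR and 4 of 38 p63 regions, against 26.9% and 25.4% of all regions. The 4 p63 regions were those beyond HOXC4 and between HOXB9 and HOXB13, both absent from CTR, and the shared ones near HOXC5 and at HOXD11. None of the HOX regions with 10 or more CpG held a site (0 of 25 and 0 of 26), and of all regions with as many CpG 3.19% and 3.43% did. The CTCF motif, with at most 1 mismatch, was found at 3 of 35 CTR regions (9.78% of all) and at 4 of 38 p63 regions (8.40%). They were at HOXA10, HOXB8 and between HOXD13 and HOXD12 in both lists, and upstream of HOXA7 in p63. Over whole peaks the match was in 5 of 35 and 8 of 38 regions, against 13.6% and 12.3% of all regions.

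The KLF motif (GGGCGGGGC, GGGCGTGGC, GGGTGGGGC or GGGTGTGGC) was found at 2 CTR regions and 1 p63 region, against 7.40% and 7.14% of all. The HOX-PBX motif TGATNNAT, bound by HOX proteins with their PBX partners, was found at 3 regions of each list, against 9.70% and 9.35%. These are 8.57% of the CTR and 7.89% of the p63 HOX regions, near the shares of all regions. In each list all 3 were in HOXA, near HOXA2, HOXA4 and HOXA7 in CTR and near HOXA2, HOXA5 and HOXA7 in p63. All had 10 or more CpG, the class chosen with the results known. In it the motif was at 3 of 25 CTR and 3 of 26 p63 HOX regions, and at 1.48% and 1.49% of all regions. That comparison is a description of few regions. A tandem repeat bound by retinoic acid receptors was found at 0 of 35 and 0 of 38 regions, and at 0.0529% and 0.0561% of all. A match describes the letters alone and does not show that a factor was bound.

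Other genes of the system were examined by the same definition of an open TSS. Of 22 noncoding genes of the clusters, 8 were open in CTR and 9 in p63. HOTTIP, the long noncoding RNA beside HOXA13, had a region 51 bp from a start in CTR (73 reads) and 281 bp in p63 (55 reads), and HOTAIR, the long noncoding RNA between HOXC12 and HOXC11, had 34 reads at 442 bp and 32 reads at 374 bp. None of the 6 microRNA genes of the clusters had a summit within 1 kb. Of 9 genes for HOX cofactors of the PBX, MEIS and PKNOX families, 6 were open in each list, and PBX2, MEIS3 and PKNOX2 were not. All 14 Polycomb and trithorax regulators were open in both lists. Of 26 other genes of positional identity, such as TBX and PITX genes, 15 were open in CTR and 14 in p63, and SHOX2 made the difference, with 33 reads 74 bp from a start in CTR at a −log10 q of 11.04 and its nearest p63 region 4120 bp away.

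Markers of cell types were examined last. Of 13 fibroblast marker genes, 12 had an open start in each list, COL3A1 being the exception. Of 10 keratinocyte markers 1 was open in CTR and 2 in p63, of 5 melanocyte markers 1 in each, and of 5 endothelial markers 1 in each. Open in both lists were CDH1, PMEL and TIE1, and the immune genes PTPRC and CD68. EPCAM was open in p63 alone, and KRT5, KRT14, PECAM1, SOX10 and CD3E had no open start in either list. By the rule used for the HOX genes, the keratinocyte markers had 14 regions in CTR, of which 0 were CTR-only (16.5% of all CTR regions were). In p63 they had 27, of which 13 were p63-only and 6 had no CTR peak, beside 23.9% and 12% of all p63 regions. At fibroblast markers 7 of 49 p63 regions were p63-only, at endothelial markers 7 of 28. At melanocyte markers it was 1 of 6, and at immune markers 0 of 14. GRHL2, a regulator of epithelial genes, had 0 regions in CTR and 4 in p63, and KRT5, a basal keratin, had 1 and 3. KRT14, KRT10 and DSG3 had equal numbers in both lists, and the endothelial marker CDH5 had 1 and 5.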

How the data were processed

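ATAC-seq was performed by the authors on 4 samples, 2 per group (CTR and p63, as labelled). The authors mapped reads to hg38 with Bowtie2 v2.3.4.3 and used MACS2 to call peaks per group, on both replicates together. The version and options of MACS2, duplicate removal and the shift of reads for the transposase are not given in the sources used here, and they affect summit positions and q-values. Each of the 2 deposited lists gives, per peak, a fold enrichment (a ratio), a −log10 p and a −log10 q, the summit offset, and a display score deposited by the authors that was not used. Total read depth is unknown.

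Here the summit pileup and the local background were solved from the deposited fold enrichment and −log10 p under the Poisson model (within 0.01 for 99.98% of CTR peaks), with SciPy 1.17.1, numpy 2.4.6 and pandas 2.3.3 in Python 3.11.15. Genes came from GENCODE release 44. Pileup ratios were divided by their median over all pairs, with exact 95% intervals. Peaks are not replicates, so no test was run. The text names list-only regions, the strongest region of each cluster and list, members without an open start, ratios past 2-fold, the 2 longest closed stretches of each cluster and motif-bearing regions. The solver, the overlaps and the motif search were tested on simulated data. The members and lists were chosen with earlier results of these data known. Alternatives were other thresholds, equal list sizes, and other windows, overlaps, transcripts and stretch lengths.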

Additional observations from a re-analysis of the deposited data

How the results depend on the processing

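No paired analysis was possible because the deposited lists pool the replicates of each group. For the same reason no result could be recomputed without a replicate, and low summits limit what could be called open. Of 73 values under the alternatives, 54 stayed within 1.5 times the main count or ratio, within the interval of the share, or within 10 percentage points of the closed share, and 19 did not. Taking every deposited peak gave 54 CTR and 62 p63 HOX regions, with 21 in each list at HOXA, 22 in p63 at HOXC and 11 in p63 at HOXD. A −log10 q of at least 20 gave 20 CTR and 18 p63 regions, of which 2 and 1 lay at HOXB, 5 and 5 at HOXC and 4 and 3 at HOXD, and 10 members had an open TSS in p63. Counting absence at any threshold gave list-only shares of 2.86% in CTR and 10.5% in p63. With closed stretches of 10 kb or more the closed share was 76.8% in CTR and 73.3% in p63. The median pileup ratio ranged from 0.896 to 1.0 over the alternatives.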
